A study of Mus musculus with 7 samples.

Results

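The epithelium of the proximal intestine was compared between mice taken 7 days after induced deletion of Mob1a and Mob1b and control mice, across every gene that the arrays measured above background. The comparison used 4 of the 7 arrays of the series, chosen by their titles, with 2 arrays of knockout mice and 2 of controls, and 22543 features out of 55681 probes were measured well enough to test. Control mice carried Mob1a f/f and Mob1b f/f alleles and no Cre, and knockout mice carried the same floxed alleles with the Villin-creERT2 transgene, in which the Villin promoter of the intestinal epithelium drives a Cre recombinase that tamoxifen activates. All 4 mice were males aged 8 weeks on a C57BL/6J background with more than 6 generations of backcrossing, and each received tamoxifen (80 mg/kg per day) on 2 days. The labels place the controls 7 days after tamoxifen, while the design text calls that time 0 days, so the day of the controls is not settled. The controls lack Cre, so that effects of the active recombinase and of the deletion cannot be told apart. The arrays were different mice by the design text, and each isolated epithelium (2 mM EDTA) was hybridised to a 1-colour array.

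The proteins Mob1a and Mob1b are adaptors of the Hippo pathway, in which they bind and switch on Lats kinases. Active Lats kinases phosphorylate the coactivators YAP and TAZ and keep them out of the nucleus, where they would otherwise drive transcription through the DNA-binding TEAD proteins. In the intestine this pathway is known for restraining growth of the crypts and for its part in regeneration after injury.

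Levels below are log2 signals minus the 75th percentile of the array, and a difference is day 7 minus control on that log2 scale with the standard error (SE) of limma. A gene was tested if its signal was well above background on both arrays of at least 1 group, and it was called if the adjusted p over all features was under 0.05. "Rose" and "fell" are used only of called genes. Mob1b had levels of -0.72 and -0.92 in the controls and -2.50 and -2.27 at day 7. Both day 7 arrays lay below both controls, and Mob1b was 2.95-fold lower (-1.56 ± 0.22, adjusted p = 0.0070), with a difference of -1.64 by its other probe. Mob1a did not pass the filter. Whether these probes lie in the deleted exons is not known, so they do not by themselves check the labels. The Esr1 probe that passed (1 of 3) belongs to the oestrogen receptor gene, of which CreERT2 contains the ligand-binding part, and it was not well above background on either control array and had levels of 1.65 and 1.75 at day 7. It was higher by at least 79-fold (adjusted p = 6.9e-05). Of 15 listed epithelial markers 15 passed and none was called (median difference 0.19), among them Vil1, Cdx2, Epcam and Krt20. The 4 arrays lay on 1 slide, the controls in slide row 1 and day 7 in row 2, so that slide row and deletion cannot be told apart. Between 45.2% and 48.8% of the probes on these arrays were well above background and no spot was saturated.

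Day 7 differed from control in a large share of the transcripts measured. Of 22543 features tested, 925 rose (4.1%) and 1365 fell (6.06%), so that 10.2% changed in either direction. Lower calls made up 59.6% of the calls. The median difference over all features was -0.06, with the 25th percentile at -0.42 and the 75th at 0.28. The 5th percentile was -1.41 and the 95th 1.15. Called differences had a median of 1.81 among those that rose and -1.71 among those that fell, and 202 features lay more than 8-fold higher and 163 more than 8-fold lower. Among the 13083 features with a gene symbol, 655 rose (5.01%) and 929 fell (7.1%). The array also carries 4468 tested probes to genome intervals without a symbol, of which 113 rose (2.53%) and 196 fell (4.39%), and among the other probes without a symbol 157 rose (3.15%) and 240 fell (4.81%). By size alone, 1393 features lay more than 1 log2 unit higher (6.18%) and 1991 more than 1 lower (8.83%). The groups did not overlap for 55.7% of all features, so that non-overlap of 2 arrays against 2 is common and is given below only beside the test.

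**Figure D1:**
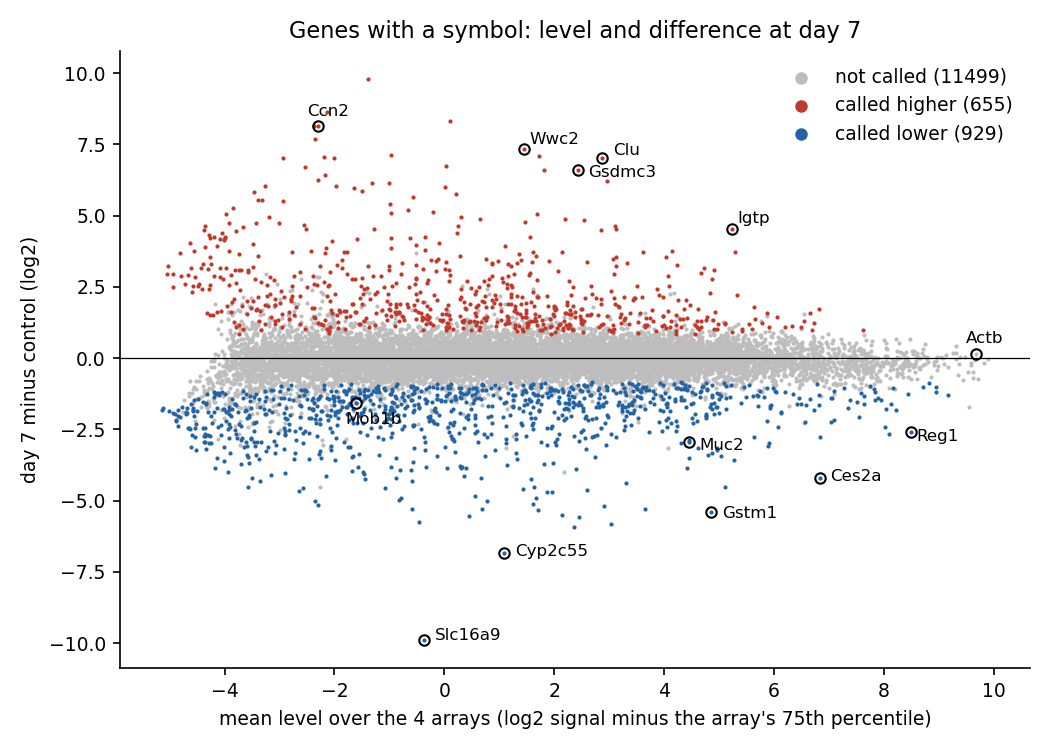
Each point is a gene with a symbol. The x axis is its mean level over the 4 arrays (log2 signal minus the 75th percentile of the array), the y axis is day 7 minus control on the log2 scale, and colour marks the 655 genes called higher, the 929 called lower and the 11499 not called. Calls occur over the whole range of levels, and the labelled genes are described in the text.

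The calls did not depend equally on each array. Without control replicate 1 the counts were 454 higher and 515 lower, without control replicate 2 they were 882 and 849, without day 7 replicate 1 they were 472 and 580, and without day 7 replicate 2 they were 873 and 1628. In all, 756 calls (33.0%) held without each of the 4 arrays in turn, 345 higher and 411 lower. Named genes whose call ended under such an alternative, or under another choice of processing, are given at the end of their paragraph. For each called gene named below, both day 7 arrays lay on one side of both control arrays. Where counts of a list are given with arrays left out, they stand in the order control replicate 1, control replicate 2, day 7 replicate 1 and day 7 replicate 2. Lists of genes are described by how many of their members were on the array, passed the filter and were called, beside the shares of 4.1% and 6.06% over all features. The lists hold only genes with a symbol, for which the matching shares were higher, 5.01% that rose and 7.1% that fell. A gene that passed through 1 group only had to be higher there. Where no count of such genes is given below, 8 solute carriers and 3 serpins were seen in the controls only. So were 2 genes each of the P450, esterase, retinoid, clock, BMP and TGF-beta, and antimicrobial lists. Another 2 antimicrobial genes were seen at day 7 only. Otherwise such lists held at most 1 in each direction.

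**Figure D2:**
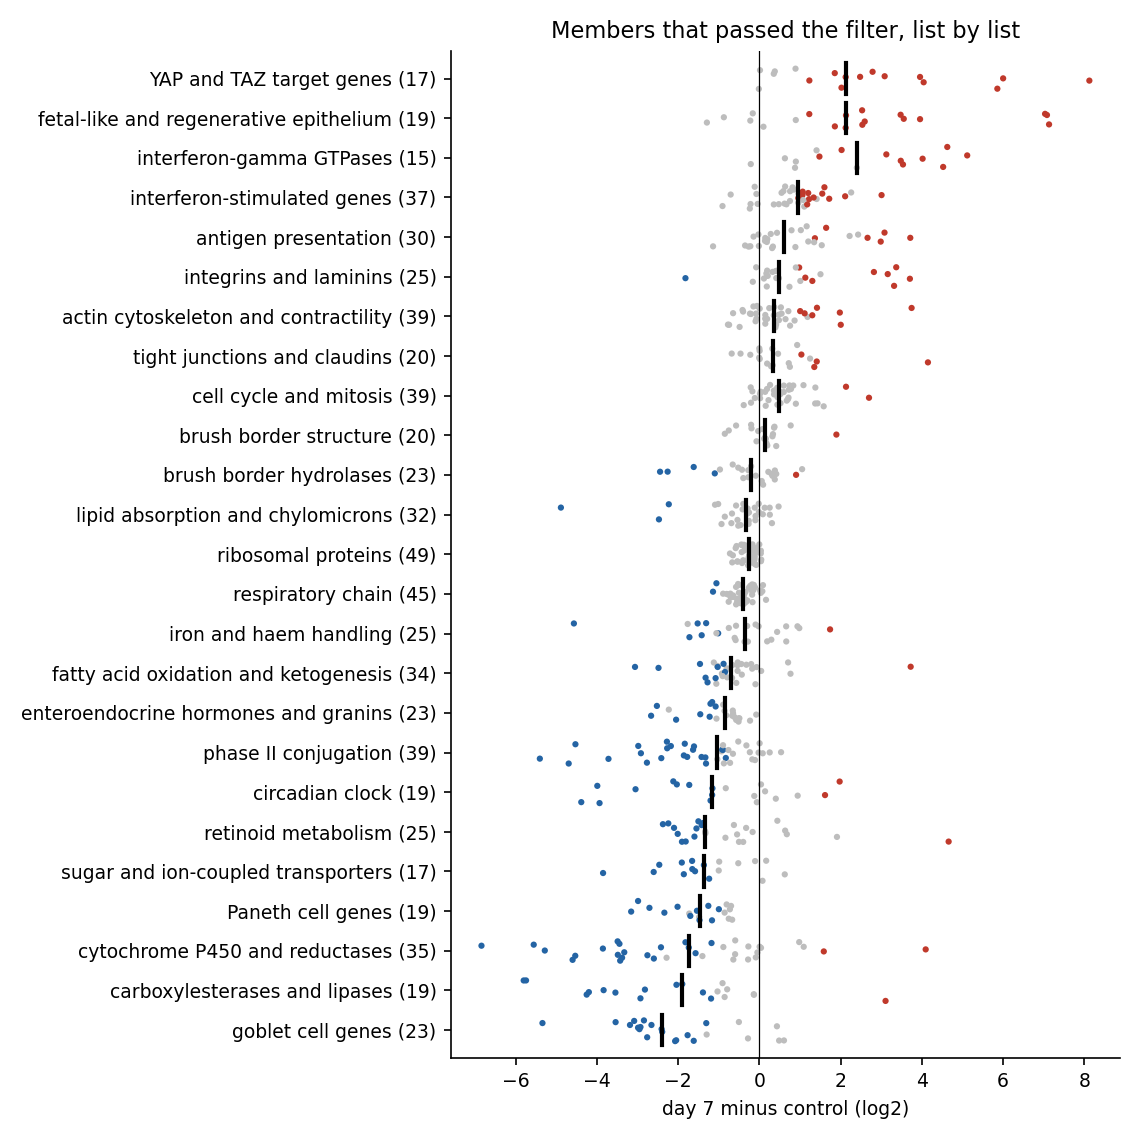
Each point is a member of a gene list that passed the filter, at its day 7 minus control difference (log2) on the x axis, with the number of such members in brackets and the black bar at their median. Members called higher are red, called lower blue and not called grey. Medians run from 2.40 for the interferon-gamma GTPases to -2.40 for the goblet cell genes.

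Target genes of YAP and TAZ were higher at day 7. Of 26 listed, 17 passed, and 12 of these rose and none fell (median 2.12). Of the 17, 4 were not well above background on either control array, so they had to be higher. Ajuba, a LIM-domain scaffold that restrains the Lats kinases, had levels of -2.84 and -3.12 in the controls and 3.08 and 2.97 at day 7. It was 64.1-fold higher (6.00 ± 0.27, adjusted p = 0.00032), with both day 7 arrays far above both controls. Edn1, which encodes the vasoconstrictor peptide endothelin-1, was not well above background on either control array and had levels of 1.19 and 1.68 at day 7 and was higher by at least 55.4-fold (adjusted p = 0.00051). Ccn1, a secreted matrix protein, had levels of -2.39 and -1.87 in the controls and 2.16 and 1.68 at day 7 and was 16.5-fold higher (4.04 ± 0.28, adjusted p = 0.00076). The angiomotin family gene Amotl2 had levels of -0.56 and -0.66 in the controls and 2.07 and 1.67 at day 7 and was 5.58-fold higher (2.48 ± 0.23, adjusted p = 0.0018). Ereg, a ligand of the epidermal growth factor receptor, varied more between the mice. It had levels of -3.12 and -1.87 in the controls and 2.23 and 0.69 at day 7 and was 15.5-fold higher (3.96 ± 0.57, adjusted p = 0.0082). Ccn2, a secreted matrix protein related to Ccn1, was higher by at least 82.3-fold (adjusted p = 0.0026). The survivin gene Birc5, also on the list, had levels of 5.20 and 5.04 in the controls and 5.20 and 5.06 at day 7 and was not called. Without control replicate 1, control replicate 2, day 7 replicate 1 and day 7 replicate 2 in turn, 7, 12, 7 and 10 members of the list rose.

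TEAD proteins bind a short core, GGAATG, which reads CATTCC on the other strand, and the promoter windows of the 5 called targets that hold this core are shown. Windows of 250 bases before a start site were taken from RefSeq (build GRCm38.p6) for 10471 tested genes, which gave 13286 windows, and a match is a description of the letters and not a binding site. The core was in 10.9% of all windows, in 15.2% of the windows of genes called higher and in 12.8% of those of genes called lower. Among YAP and TAZ targets 12 of the 17 genes that passed had a window, and 5 of their 13 windows held it (38.5%). The list was compiled as targets of factors that act through TEAD proteins, so this share describes the list and not the array values. Of the other called targets, Cavin2, F3, Areg and Lats2 had windows without the core, and windows of Ccn2, Ereg and Thbs1 were not used here. Cores are in capitals, and each sequence runs 5′ to 3′ towards the start site.
Ajuba (chr14:54577662-54577911, minus strand): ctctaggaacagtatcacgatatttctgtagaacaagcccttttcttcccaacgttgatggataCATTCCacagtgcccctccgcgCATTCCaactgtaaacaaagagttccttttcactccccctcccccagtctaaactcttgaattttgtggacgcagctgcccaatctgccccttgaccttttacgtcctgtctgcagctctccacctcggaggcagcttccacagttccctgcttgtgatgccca
Edn1 (chr13:42301226-42301475, plus strand): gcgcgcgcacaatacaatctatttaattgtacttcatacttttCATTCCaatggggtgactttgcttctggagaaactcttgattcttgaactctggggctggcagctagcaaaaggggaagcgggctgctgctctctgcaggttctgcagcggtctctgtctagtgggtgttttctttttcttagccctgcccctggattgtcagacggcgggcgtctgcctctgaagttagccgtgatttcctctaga
Ccn1 (chr3:145649986-145650235, minus strand): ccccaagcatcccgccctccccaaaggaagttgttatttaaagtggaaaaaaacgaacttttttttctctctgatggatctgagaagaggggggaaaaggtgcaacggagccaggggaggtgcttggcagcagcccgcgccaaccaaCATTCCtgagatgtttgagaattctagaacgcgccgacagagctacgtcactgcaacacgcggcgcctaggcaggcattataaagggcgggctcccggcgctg
Amotl2 (chr9:102717554-102717803, plus strand): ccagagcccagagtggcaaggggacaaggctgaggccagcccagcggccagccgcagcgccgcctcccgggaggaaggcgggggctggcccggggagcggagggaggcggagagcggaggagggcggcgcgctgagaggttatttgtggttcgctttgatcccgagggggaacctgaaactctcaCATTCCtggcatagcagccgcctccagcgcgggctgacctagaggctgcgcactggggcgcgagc
Crim1 (chr17:78199998-78200247, plus strand): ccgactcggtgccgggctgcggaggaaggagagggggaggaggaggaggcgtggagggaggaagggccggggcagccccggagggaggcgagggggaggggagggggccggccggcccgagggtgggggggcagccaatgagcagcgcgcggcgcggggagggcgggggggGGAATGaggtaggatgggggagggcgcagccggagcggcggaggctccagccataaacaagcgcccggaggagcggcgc
The Ajuba window held 2 cores, which begin 186 and 164 bases before its start site. The others held 1 core each, beginning 207 bases before the start of Edn1, 103 before Ccn1, 65 before Amotl2 and 79 before Crim1. Crim1, a transmembrane protein with cysteine-rich repeats, had levels of -0.82 and 0.19 in the controls and 1.56 and 1.85 at day 7 and was 4.06-fold higher (2.02 ± 0.36, adjusted p = 0.018). Areg was not called without control replicate 1 or without day 7 replicate 1 and without the filter on dim signals (adjusted p = 0.068 to 0.076), Cavin2 under normexp correction (0.089) and Crim1 without control replicate 1 or without either day 7 replicate and without the filter on dim signals (0.060 to 0.077). F3 was not called without control replicate 1 or without day 7 replicate 1 and without the filter on dim signals (adjusted p = 0.054 to 0.071), Lats2 without either control replicate or without either day 7 replicate, under normexp correction, without the filter on dim signals, with only the 2 groups compared, under quantile normalization, with a gene's probes averaged and with the percentile over probes seen on all arrays (0.052 to 0.22) and Thbs1 without control replicate 1 or without day 7 replicate 1, under normexp correction and without the filter on dim signals (0.066 to 0.11).

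**Figure D3:**
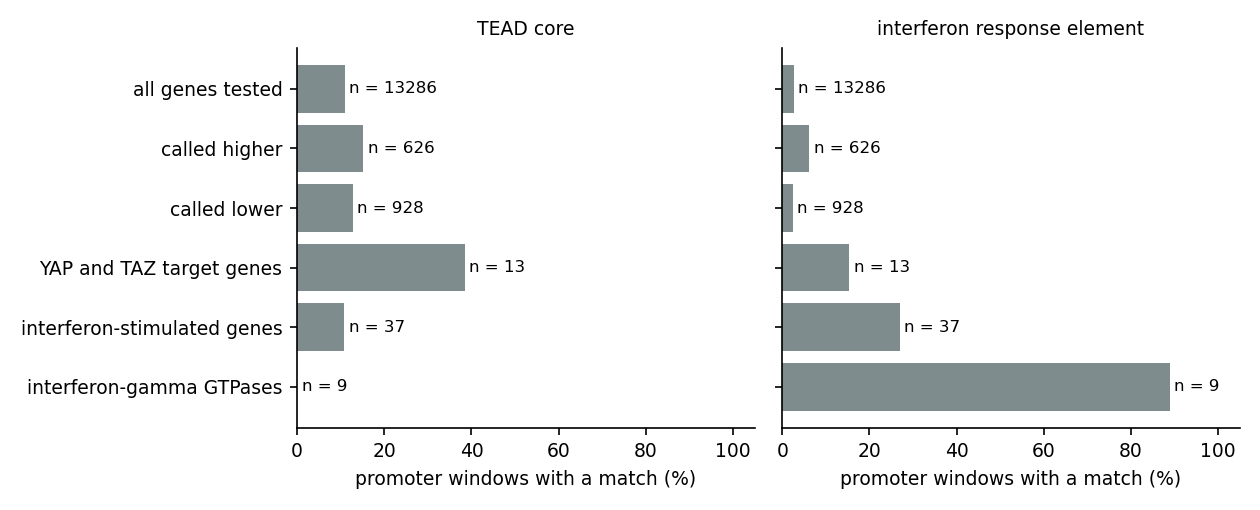
Bars give the percent of 250-base promoter windows that hold the TEAD core (left) or the interferon response element (right), on either strand, with the number of windows beside each bar. The YAP and TAZ target genes reach 38.5% for the TEAD core against 10.9% of all windows. The list of interferon-gamma GTPases, which also holds Ido1, reaches 88.9% for the interferon element against 2.65%. Both lists were compiled as targets of the factors or signals whose motifs are counted, so these shares describe the lists and not the array values.

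Components of the Hippo pathway itself also changed. Of 30 listed, 21 passed, 7 rose and 2 fell (median 0.59), and 6, 6, 4 and 6 rose with 1 array left out. The 2 that fell were Tead2 and Mob1b, which is itself a deleted gene. Lats2, among those that rose, is also on the list of YAP and TAZ targets and differed by 0.25 by its other probe. The Kibra family genes Wwc2 and Wwc1, whose proteins act upstream of the Lats kinases, were both higher. Wwc2 had levels of -2.53 and -1.89 in the controls and 5.19 and 5.03 at day 7 and was 160.0-fold higher (7.32 ± 0.27, adjusted p = 0.00024), and Wwc1 had levels of 3.08 and 3.37 in the controls and 5.38 and 5.18 at day 7 and was 4.15-fold higher (2.05 ± 0.22, adjusted p = 0.0030). Wtip, a relative of Ajuba, had levels of -0.36 and -0.03 in the controls and 2.91 and 2.58 at day 7 and was 7.69-fold higher (2.94 ± 0.28, adjusted p = 0.0021). The TEAD genes did not move together. Tead1 was 6.01-fold higher (2.59 ± 0.26, adjusted p = 0.0025) by its brightest probe and differed by 0.42 by another. Tead4 was 6.64-fold higher (2.73 ± 0.50, adjusted p = 0.019), Tead2 was 6.42-fold lower (-2.68 ± 0.42, adjusted p = 0.010), and Tead3 was not called (-0.58 ± 0.21, adjusted p = 0.16). The gene of YAP itself, Yap1, had levels of 3.66 and 3.70 in the controls and 3.45 and 3.20 at day 7 and was not called (-0.35 ± 0.21, adjusted p = 0.36), and that of TAZ, Wwtr1, was 7.02-fold higher (2.81 ± 0.41, adjusted p = 0.0084). Tead2 was not called without day 7 replicate 1 and without the filter on dim signals (adjusted p = 0.053 to 0.064), Tead4 without day 7 replicate 1, under normexp correction, without the filter on dim signals and with only the 2 groups compared (0.053 to 0.12) and Wwtr1 without day 7 replicate 1 (0.053).

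Markers of fetal-like and regenerating epithelium rose with the YAP targets, with which the list shares Areg and Ereg. Of 26 listed, 19 passed, 13 rose and none fell (median 2.13). Clu, the secreted chaperone clusterin, had levels of -0.87 and -0.42 in the controls and 6.70 and 6.08 at day 7 and was 131-fold higher (7.04 ± 0.33, adjusted p = 0.00032). The surface protein gene Ly6a, known as Sca-1, had levels of -2.02 and -1.63 in the controls and 6.61 and 3.90 at day 7 and was 135-fold higher (7.08 ± 0.85, adjusted p = 0.0043). It stood higher on day 7 array 1 than on array 2, with both above the controls, and probes to Ly6 genes may not tell close relatives apart. Tnfrsf12a, the receptor of TWEAK, had levels of 2.84 and 3.01 in the controls and 5.29 and 4.82 at day 7 and was 4.38-fold higher (2.13 ± 0.24, adjusted p = 0.0035). Il33, an alarmin, had levels of 2.45 and 2.01 in the controls and 4.61 and 4.93 at day 7 and was 5.79-fold higher (2.53 ± 0.27, adjusted p = 0.0028). Anxa5, an annexin that binds phosphatidylserine, had levels of 1.34 and 1.47 in the controls and 3.88 and 3.98 at day 7 and was 5.77-fold higher (2.53 ± 0.20, adjusted p = 0.0013). Another annexin gene on the list, Anxa2, was not called (0.10 ± 0.26, adjusted p = 0.85). Markers of stomach and oesophagus were mixed, with 8 of 22 passed, of which Psca (13.6-fold) and Tff1 (at least 9.43-fold) rose and Gkn3 (5.03-fold) fell, while Gkn1, Gkn2, Muc5ac and Krt4 did not pass the filter. Tff1 was not called under normexp correction (adjusted p = 0.075).

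Genes of the secretory lineages were lower at day 7. All 23 goblet cell genes listed passed the filter, 17 fell and none rose (median -2.40). Spdef, the transcription factor that drives goblet cell maturation, had levels of 4.58 and 3.77 in the controls and 0.86 and 1.12 at day 7 and was 9.12-fold lower (-3.19 ± 0.31, adjusted p = 0.0022). Agr2, a disulfide isomerase needed for mucin folding, had levels of 7.46 and 7.40 in the controls and 4.28 and 4.41 at day 7 and was 8.49-fold lower (-3.09 ± 0.21, adjusted p = 0.00072). Muc2, the main secreted mucin, had levels of 6.02 and 5.81 in the controls and 2.63 and 3.34 at day 7 and was 7.62-fold lower (-2.93 ± 0.31, adjusted p = 0.0028). In these 3 genes each day 7 array lay at least 2 log2 units below each control array. Creb3l1 and Foxa3, transcription factors of secretory cells, were 4.22-fold lower (-2.08 ± 0.23, adjusted p = 0.0031) and 5.26-fold lower (-2.40 ± 0.23, adjusted p = 0.0020), and Ern2, the stress sensor IRE1-beta of mucus cells, was 5.32-fold lower (-2.41 ± 0.23, adjusted p = 0.0021). Atoh1, which commits progenitors to the secretory fate, differed by -1.30 ± 0.42 (adjusted p = 0.11) and was not called. Muc13, a transmembrane mucin made also by absorptive cells, differed by 0.43 ± 0.22 (adjusted p = 0.29). In samples of mixed cells, fewer cells of a type and less RNA per cell cannot be told apart.

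Paneth cell genes were lower as well. Of 27 listed 20 were on the array and 19 passed, of which 11 fell and none rose (median -1.48). Of the 19, 3 were not well above background on either day 7 array, so they had to be lower. Defa21, an alpha-defensin, had levels of 6.59 and 6.49 in the controls and 3.34 and 3.41 at day 7 and was 8.94-fold lower (-3.16 ± 0.20, adjusted p = 0.00061). Defa23, a brighter probe, had levels of 10.01 and 9.94 in the controls and 8.78 and 9.77 at day 7 and was not called (-0.70 ± 0.34, adjusted p = 0.26), and Defa3 differed by -0.76 ± 0.21 (adjusted p = 0.077). Defensin genes are near-identical copies, so that which member a probe measured is uncertain. Habp2, a plasma protease of the list, had levels of 1.64 and 1.01 in the controls and -1.36 and -0.67 at day 7 and was 5.07-fold lower (-2.34 ± 0.33, adjusted p = 0.0079). Wnt3, the Wnt ligand that Paneth cells make for stem cells, had levels of -2.83 and -2.59 in the controls and was not well above background on either day 7 array and was lower by at least 2.83-fold (adjusted p = 0.012). With control replicate 1, control replicate 2, day 7 replicate 1 or day 7 replicate 2 left out, 5, 9, 5 and 10 members fell. Wnt3 was not called under normexp correction and without the filter on dim signals (adjusted p = 0.059 to 0.083).

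Some enteroendocrine genes fell, among both the factors that specify these cells and the hormones that they make. Of 18 listed transcription factors 12 passed and 7 fell (median -1.41), and of 24 hormones and granins 23 passed and 8 fell (median -0.86), with no member of either list higher. Neurog3, which commits cells to the endocrine fate, had levels of 2.33 and 2.03 in the controls and -1.71 and -1.48 at day 7 and was 13.7-fold lower (-3.77 ± 0.22, adjusted p = 0.00050). Foxa2 had levels of 1.05 and 0.73 in the controls and -1.50 and -1.14 at day 7 and was 4.64-fold lower (-2.21 ± 0.24, adjusted p = 0.0030). Both genes were low on each day 7 array, with no overlap. Among the hormones, Tac1, the precursor of substance P in enterochromaffin cells, had levels of 2.11 and 2.06 in the controls and 0.36 and -0.29 at day 7 and was 4.15-fold lower (-2.05 ± 0.28, adjusted p = 0.0066). Chga, the granule protein chromogranin A, was 2.34-fold lower (-1.23 ± 0.24, adjusted p = 0.025). Secretin (Sct) differed by -0.51 ± 0.22 (adjusted p = 0.22), cholecystokinin (Cck) by -0.82 ± 0.24 (adjusted p = 0.087) and somatostatin (Sst) by -0.65 ± 0.31 (adjusted p = 0.26). With each array left out in turn, 2, 5, 3 and 8 of the transcription factors and 3, 4, 2 and 10 of the hormones and granins fell, in the order given above. The difference between the lists was not tested. Chga was not called without either control replicate or without either day 7 replicate, without the filter on dim signals and with only the 2 groups compared (adjusted p = 0.051 to 0.15).

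Tuft cells are the chemosensory cells of the epithelium. Of 24 listed genes 18 passed, 3 fell and 1 rose (median -0.99). Ltc4s, the leukotriene C4 synthase of these cells, had levels of 3.23 and 3.59 in the controls and 0.64 and 0.86 at day 7 and was 6.33-fold lower (-2.66 ± 0.26, adjusted p = 0.0021), whereas the cyclooxygenase gene Ptgs1 had levels of 0.50 and -0.04 in the controls and 2.31 and 2.52 at day 7 and was 4.56-fold higher (2.19 ± 0.29, adjusted p = 0.0059). Their defining factor Pou2f3 and the cytokine Il25 did not pass. Without day 7 replicate 2 the number of members that fell was 10, against 1 without any of the other 3 arrays.

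**Figure D4:**
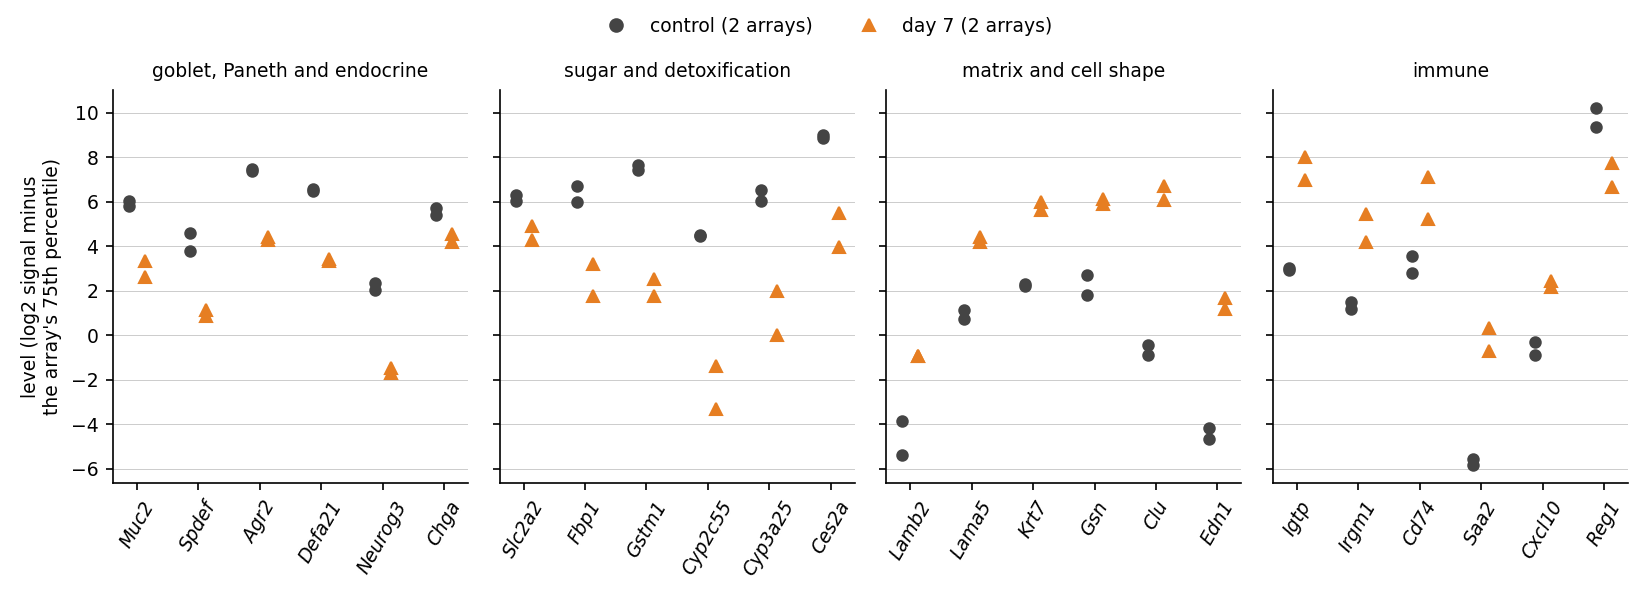
Level of 24 genes (log2 signal minus the 75th percentile of the array) on the 2 control arrays (grey circles) and the 2 day 7 arrays (orange triangles), in 4 panels. The groups do not overlap for any of these genes, which were chosen for display among those called. Control points of Edn1 and Saa2 are not well above background.

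The brush border of absorptive cells was described by its structural genes and its hydrolases. Of 21 listed structural genes 20 passed and 1 rose (median 0.14), and Vil1, the villin gene, had levels of 8.46 and 8.36 in the controls and 8.31 and 8.44 at day 7. Of 25 hydrolases 23 passed, 4 fell and 1 rose (median -0.21), and 2, 2, 0 and 4 fell with 1 array left out. Sucrase-isomaltase (Sis) differed by -0.52 ± 0.21 (adjusted p = 0.18) and lactase (Lct) by -0.40 ± 0.35 (adjusted p = 0.53). Akp3, an alkaline phosphatase of the duodenum, had levels of 3.93 and 4.23 in the controls and 1.47 and 1.80 at day 7 and was 5.46-fold lower (-2.45 ± 0.34, adjusted p = 0.0068). Tmprss15, the enteropeptidase that activates trypsinogen, had levels of 4.88 and 5.62 in the controls and 2.87 and 3.11 at day 7 and was 4.8-fold lower (-2.26 ± 0.33, adjusted p = 0.0087). Of 20 amino acid and peptide transporters 17 passed and 2 fell (median -0.21), and 0, 1, 0 and 1 fell with 1 array left out. Akp3 was not called without day 7 replicate 1 (adjusted p = 0.051) and Tmprss15 without day 7 replicate 1 (0.062).

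Genes of sugar uptake and sugar metabolism were lower. All 17 listed genes passed the filter and 10 of them fell, with none higher (median -1.37). Fbp1, the gluconeogenic fructose-bisphosphatase, had levels of 5.99 and 6.70 in the controls and 1.79 and 3.20 at day 7 and was 14.4-fold lower (-3.85 ± 0.49, adjusted p = 0.0053). Slc5a4b, a sodium-coupled sugar transporter family member, had levels of 3.19 and 3.15 in the controls and 0.49 and 0.92 at day 7 and was 5.53-fold lower (-2.47 ± 0.31, adjusted p = 0.0051). The day 7 levels of both genes lay below the controls, with the lower value on array 1. The facilitative glucose transporter Slc2a2 was 3.0-fold lower (-1.59 ± 0.28, adjusted p = 0.016), and the fructose transporter Slc2a5 was 3.16-fold lower (-1.66 ± 0.33, adjusted p = 0.025). The main glucose transporter of the brush border, Slc5a1, differed by -0.99 ± 0.42 (adjusted p = 0.21) and was not called. Without control replicate 1, control replicate 2, day 7 replicate 1 and day 7 replicate 2 in turn, 4, 4, 3 and 12 members fell. Slc2a2 was not called without either control replicate or without day 7 replicate 1 and without the filter on dim signals (adjusted p = 0.055 to 0.072) and Slc2a5 without control replicate 2 or without day 7 replicate 1, without the filter on dim signals and with only the 2 groups compared (0.057 to 0.12).

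Absorbed lipids leave the epithelium in chylomicrons or through exporters. Of 35 listed genes of lipid absorption 32 passed and 3 fell (median -0.33). Abca1, the cholesterol exporter, was 29.7-fold lower (-4.89 ± 0.25, adjusted p = 0.00033), low on both day 7 arrays, and its transcriptional activator Nr1h3, the liver X receptor alpha, was 2.7-fold lower (-1.43 ± 0.24, adjusted p = 0.013). Scarb1, a receptor for high-density lipoprotein, was 5.56-fold lower (-2.48 ± 0.38, adjusted p = 0.010). The apolipoproteins Apoa1 (0.13 ± 0.23, adjusted p = 0.77) and Apoa4 (-0.54 ± 0.31, adjusted p = 0.33) were not called. Clps, the pancreatic colipase, had levels of 5.29 and 4.75 in the controls and 2.77 and 2.80 at day 7 and was 4.7-fold lower (-2.23 ± 0.25, adjusted p = 0.0031). The 9 pancreas markers that passed, of 22, held 4 that fell (2, 3, 2 and 4 with 1 array left out), this gene, Pnliprp1 (at least 10.8-fold lower), Reg1 (6.04-fold lower) and Zg16 (2.48-fold lower), and their summed signal was 1733 to 2025 times the 75th percentile in the controls and 399 to 681 times at day 7. Reg1 is also on the antimicrobial list and Zg16 on the goblet cell list, so the sum does not stand for pancreas alone. Prss1, Cela2a, Pnlip and Cpa1 did not pass. The part of pancreatic RNA in these values was not tested. Nr1h3 was not called without either control replicate or without day 7 replicate 1 and without the filter on dim signals (adjusted p = 0.056 to 0.067), Reg1 without control replicate 1 or without day 7 replicate 1 and without the filter on dim signals (0.061 to 0.067) and Scarb1 without day 7 replicate 1 and without the filter on dim signals (0.052 to 0.059). Zg16 was not called without either control replicate or without day 7 replicate 1, under normexp correction, without the filter on dim signals, with only the 2 groups compared, under quantile normalization and with the percentile over probes seen on all arrays (adjusted p = 0.053 to 0.40).

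Ion and mineral transport genes changed in both directions. Of 37 ion, acid and water transport genes 33 passed, 5 rose and 4 fell (median -0.64), and 3, 4, 4 and 4 rose and 3, 3, 1 and 5 fell with 1 array left out. Ano1, a calcium-activated chloride channel, had levels of -1.82 and -1.75 in the controls and 3.21 and 2.97 at day 7 and was 29.4-fold higher (4.88 ± 0.22, adjusted p = 0.00032). Trpm6, a magnesium channel, had levels of -2.80 and -2.52 in the controls and 3.48 and 2.71 at day 7 and was 54-fold higher (5.75 ± 0.36, adjusted p = 0.00058). Car2, carbonic anhydrase II, had levels of 2.41 and 2.86 in the controls and 5.56 and 5.47 at day 7 and was 7.37-fold higher (2.88 ± 0.25, adjusted p = 0.0015). All 3 were high on both day 7 arrays. In contrast, the calcium channel Trpv6 was 6.24-fold lower (-2.64 ± 0.53, adjusted p = 0.026) and the calcium-binding protein calbindin-D9k, S100g, was 10.1-fold lower (-3.34 ± 0.52, adjusted p = 0.010). Among 25 iron and haem genes that passed, of 27 listed, 6 fell and 1 rose (median -0.37), and 2, 1, 2 and 4 fell with 1 array left out. Cybrd1, the ferric reductase of the duodenal brush border, had levels of 0.70 and 1.70 in the controls and -4.01 and -2.73 at day 7 (1 of 2 arrays well above background) and was 23.8-fold lower (-4.57 ± 0.49, adjusted p = 0.0028). S100g was not called without day 7 replicate 1 and without the filter on dim signals (adjusted p = 0.053 to 0.076) and Trpv6 without control replicate 2 or without day 7 replicate 1, under normexp correction, without the filter on dim signals and with only the 2 groups compared (0.051 to 0.14).

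Over the solute carrier family as a whole, 266 of 384 symbols passed, 12 rose (4.51%) and 49 fell (18.4%), with a median of -0.19. The lowest difference among all genes with a symbol belonged to this family. Slc16a9, a monocarboxylate transporter family member, had levels of 4.45 and 4.68 in the controls and was not well above background on either day 7 array and was lower by at least 439-fold (adjusted p = 0.00027). Slc22a13b, an organic anion transporter family gene, was 26.2-fold lower (-4.71 ± 0.32, adjusted p = 0.00073), Slc37a2, a sugar phosphate exchanger, 14.5-fold lower (-3.86 ± 0.26, adjusted p = 0.00070), and Slc12a8 8.19-fold lower (-3.03 ± 0.23, adjusted p = 0.0010). Those that rose included Slc34a2, a sodium-phosphate transporter, which had levels of -4.14 and -5.12 in the controls (1 of 2 arrays well above background) and 1.88 and 0.78 at day 7 and was 62.4-fold higher (5.96 ± 0.53, adjusted p = 0.0017), and Slc5a6, the vitamin transporter for biotin and pantothenate, which had levels of 3.52 and 3.44 in the controls and 6.17 and 6.36 at day 7 and was 6.91-fold higher (2.79 ± 0.22, adjusted p = 0.0012). Without each array in turn, 23, 31, 23 and 53 of the family fell, in the order control replicates 1 and 2 and day 7 replicates 1 and 2.

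Many detoxification genes were lower at day 7. Of 40 listed cytochrome P450 and reductase genes 35 passed, 19 fell and 2 rose (median -1.74), and of 43 phase II conjugation genes 39 passed, 22 fell and none rose (median -1.04). Of 25 carboxylesterases and lipases 19 passed, 12 fell and 1 rose (median -1.90). Cyp2b10, a classical target of the receptor CAR, had levels of 8.27 and 8.18 in the controls and 5.26 and 5.67 at day 7 and was 6.77-fold lower (-2.76 ± 0.23, adjusted p = 0.0014). Cyp2c55 had levels of 4.53 and 4.48 in the controls and -3.31 and -1.38 at day 7 (1 of 2 arrays well above background) and was 115-fold lower (-6.85 ± 0.60, adjusted p = 0.0016). Cyp3a25 had levels of 6.03 and 6.55 in the controls and 0.01 and 2.00 at day 7 and was 39-fold lower (-5.29 ± 0.63, adjusted p = 0.0040). The fall was deeper on day 7 array 1 than on array 2 in each of these genes, and both arrays lay below both controls. Cyp4a10, a target of PPAR-alpha that hydroxylates fatty acids, had levels of 0.83 and 0.91 in the controls and -2.27 and -2.98 at day 7 and was 11.3-fold lower (-3.49 ± 0.28, adjusted p = 0.0013). The 2 that rose were Cyp4b1 (1.58 ± 0.23, adjusted p = 0.0083) and Cyp2d34 (4.09 ± 0.40, adjusted p = 0.0021). Cyp3a11, a main drug-metabolising enzyme of mouse, had levels of 7.05 and 8.33 in the controls and 4.42 and 6.38 at day 7 and was not called (-2.29 ± 0.67, adjusted p = 0.085).

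Conjugating enzymes that fell included the mu-class glutathione transferases, which attach glutathione to reactive compounds. Gstm1 had levels of 7.45 and 7.68 in the controls and 1.78 and 2.52 at day 7 and was 42.5-fold lower (-5.41 ± 0.35, adjusted p = 0.00068). Gstm3 had levels of 7.39 and 7.38 in the controls and 1.99 and 3.71 at day 7 and was 23.1-fold lower (-4.53 ± 0.51, adjusted p = 0.0033). Other members were Gstm4 (26-fold lower), Gstm6 (7.92-fold) and Gstm7 (7.57-fold), and the glucuronosyltransferase Ugt2b5 was 13.2-fold lower (-3.72 ± 0.38, adjusted p = 0.0024). The carboxylesterase Ces2a, which hydrolyses drug and lipid esters, had levels of 8.87 and 8.99 in the controls and 3.96 and 5.50 at day 7 and was 18.4-fold lower (-4.20 ± 0.51, adjusted p = 0.0043). Ces1f had levels of 5.89 and 6.00 in the controls and -0.84 and 1.11 at day 7 and was 56-fold lower (-5.81 ± 0.57, adjusted p = 0.0021). Each of these groups holds close paralogs, which a probe may not separate. Not every bright member fell, since Gsto1 differed by 0.25 ± 0.23 (adjusted p = 0.56) and Ugt2b34 by -0.11 ± 0.22 (adjusted p = 0.81). With control replicate 1, control replicate 2, day 7 replicate 1 or day 7 replicate 2 left out, 14, 16, 13 and 20 of the P450 list, 14, 16, 13 and 18 of the phase II list and 7, 10, 8 and 12 of the esterase list fell.

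Nuclear receptors regulate such enzymes. Of 35 listed receptors and partners 33 passed, 5 fell and 2 rose (median -0.34), Esr1 being among the 2, and 1, 3, 1 and 6 fell with 1 array left out. Nr1i3, the receptor CAR, had levels of 4.79 and 4.93 in the controls and 3.19 and 3.33 at day 7 and was 3.03-fold lower (-1.60 ± 0.22, adjusted p = 0.0071). Nr0b2, the corepressor SHP induced by bile acids, had levels of -1.55 and -2.13 in the controls and was not well above background on either day 7 array and was lower by at least 5.18-fold (adjusted p = 0.017). The oxidative stress regulator Nfe2l2 differed by -0.77 ± 0.27 (adjusted p = 0.13), and its target Nqo1 was 3.63-fold lower (-1.86 ± 0.31, adjusted p = 0.012). Hnf4a, a master factor of enterocytes, had levels of 7.49 and 7.64 in the controls and 7.55 and 7.94 at day 7 and was not called (0.18 ± 0.23, adjusted p = 0.68). The list of ABC efflux transporters also holds genes of other families, such as Slc10a2, Fabp6 and Slco2b1. Of its 22 genes that passed 3 rose and 4 fell. With 1 array left out 1, 1, 1 and 3 rose and 3, 3, 3 and 7 fell. In the ABC family alone 33 genes passed, 2 rose and 5 fell. Called ABC genes included Abcb1a, the P-glycoprotein, 4.25-fold lower (-2.09 ± 0.28, adjusted p = 0.0063), Abcb4 3.53-fold lower (-1.82 ± 0.25, adjusted p = 0.0073) and Abcc5 5.71-fold higher (2.51 ± 0.28, adjusted p = 0.0033). Nqo1 was not called without day 7 replicate 1 and without the filter on dim signals (adjusted p = 0.058 to 0.064) and Nr0b2 without control replicate 1 or without day 7 replicate 1, under normexp correction and without the filter on dim signals (0.074 to 0.11).

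Several genes of vitamin A handling fell. Of 31 listed retinoid genes 25 passed, 11 fell and 1 rose (median -1.33). Adh1 and Adh4, alcohol dehydrogenases that oxidise retinol, were 4.74-fold lower (-2.24 ± 0.31, adjusted p = 0.0068) and 4.3-fold lower (-2.10 ± 0.24, adjusted p = 0.0035). The cellular retinol-binding protein Rbp2, which carries absorbed vitamin A, had levels of 7.20 and 7.53 in the controls and 5.97 and 5.91 at day 7 and was 2.68-fold lower (-1.42 ± 0.24, adjusted p = 0.014). The aldehyde dehydrogenase Aldh1a7 was 5.2-fold lower (-2.38 ± 0.23, adjusted p = 0.0020), and the carotenoid-cleaving enzyme Bco2 3.75-fold lower (-1.91 ± 0.24, adjusted p = 0.0051). The retinoic acid receptor gene Rarb went the other way. It had levels of -3.93 and -5.85 in the controls (1 of 2 arrays well above background) and -1.08 and 0.62 at day 7 and was 25.3-fold higher (4.66 ± 1.12, adjusted p = 0.047). With each array left out in turn, 7, 6, 5 and 13 members fell, in the order used above. Bco2 was not called under normexp correction (adjusted p = 0.097), Rarb without either control replicate or without either day 7 replicate, under normexp correction, without the filter on dim signals and with the percentile over probes seen on all arrays (0.057 to 0.16) and Rbp2 without control replicate 2 or without day 7 replicate 1 and without the filter on dim signals (0.060 to 0.064).

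Some fatty acid oxidation genes were lower. Of 35 listed 34 passed, 9 fell and 1 rose (median -0.71). Acaa2, a mitochondrial thiolase, had levels of 8.06 and 8.18 in the controls and 6.59 and 6.72 at day 7 and was 2.76-fold lower (-1.46 ± 0.21, adjusted p = 0.0082), and the acyl-CoA thioesterase Acot1 had levels of 0.67 and 0.96 in the controls and -1.83 and -1.51 at day 7 and was 5.6-fold lower (-2.49 ± 0.25, adjusted p = 0.0022). Vnn1, the pantetheinase vanin-1, had levels of 1.49 and 2.03 in the controls and 5.51 and 5.46 at day 7 and was 13.2-fold higher (3.72 ± 0.25, adjusted p = 0.00070). Cholesterol synthesis held 1 call among 34 members, the squalene epoxidase gene Sqle (1.74 ± 0.26, adjusted p = 0.0090), and of 28 glycolytic genes that passed only Aldoc was called (-2.57 ± 0.29, adjusted p = 0.0034). Without each array in turn, 2, 3, 2 and 7 of the oxidation genes fell. Sqle was not called without control replicate 1 (adjusted p = 0.053).

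Clock genes differed between the groups. Of 22 listed 19 passed, 10 fell and 2 rose (median -1.16). The output factors Dbp and Hlf, which bind the same DNA element, were both lower. Dbp had levels of 5.43 and 5.58 in the controls and 0.13 and 2.10 at day 7 and was 20.9-fold lower (-4.39 ± 0.62, adjusted p = 0.0076), and Hlf had levels of 1.34 and 0.99 in the controls and -2.73 and -2.83 at day 7 and was 15.3-fold lower (-3.94 ± 0.45, adjusted p = 0.0035). The repressor Per2 also fell (-2.12 ± 0.32, adjusted p = 0.0094), and the activator Npas2 rose (1.62 ± 0.27, adjusted p = 0.013). Clock itself (0.14 ± 0.22, adjusted p = 0.74) and Nr1d1 (-0.13 ± 0.37, adjusted p = 0.86) were not called. The hour at which tissue was taken is not given in the sources used here. With each array left out in turn, 4, 5, 3 and 7 members fell. Npas2 was not called without control replicate 2, under normexp correction and without the filter on dim signals (adjusted p = 0.056 to 0.060) and Per2 without day 7 replicate 1 (0.060).

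Some genes of the basement membrane, the keratins and the cytoskeleton rose. The integrin and laminin list also holds other genes, such as Nid1, Plec and Agrn. Of its 32 genes 25 passed, 8 rose and 1 fell (median 0.48), and 5, 7, 5 and 6 rose with 1 array left out. Of 17 keratins 13 passed and 3 rose (median 0.65). The laminin chains Lama5 and Lamb2, parts of the basement membrane, were both higher. Lama5 had levels of 1.12 and 0.71 in the controls and 4.40 and 4.18 at day 7 and was 10.3-fold higher (3.37 ± 0.24, adjusted p = 0.00083), and Lamb2 had levels of -3.86 and -5.40 in the controls (1 of 2 arrays well above background) and -0.91 and -0.94 at day 7 and was 13-fold higher (3.71 ± 0.47, adjusted p = 0.0052). Lamc1 was 7.06-fold higher (2.82 ± 0.38, adjusted p = 0.0065), whereas Lamb1 was 3.54-fold lower (-1.82 ± 0.26, adjusted p = 0.0082). The main integrin chains of the epithelium, Itga6 (0.18 ± 0.29, adjusted p = 0.75) and Itgb4 (0.45 ± 0.23, adjusted p = 0.28), were not called. Krt7, a keratin of simple ductal epithelia, had levels of 2.22 and 2.31 in the controls and 5.99 and 5.65 at day 7 and was 11.7-fold higher (3.55 ± 0.31, adjusted p = 0.0016), and Krt23 was 2.97-fold higher (1.57 ± 0.20, adjusted p = 0.0055). Krt8, Krt18, Krt19 and Krt20, the usual intestinal keratins, were not called, with differences from -0.19 to 0.81. Of 22 fibroblast markers 8 passed, none rose and 2 fell (0, 2, 0 and 2 with 1 array left out), and Col1a1, Pdgfra and Lum did not pass. Of the 8, 3 were not well above background on either day 7 array, so they had to be lower. Lamb1 was not called under normexp correction (adjusted p = 0.21).

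The actin list held 7 genes that rose and none that fell among the 39 of 44 that passed (median 0.35). Gsn, the actin-severing protein gelsolin, had levels of 1.82 and 2.71 in the controls and 5.89 and 6.14 at day 7 and was 13.4-fold higher (3.75 ± 0.34, adjusted p = 0.0017). Myl9, a myosin light chain, had levels of -3.25 and -2.92 in the controls and -0.79 and -1.37 at day 7 and was 4.01-fold higher (2.00 ± 0.27, adjusted p = 0.0065). Actb, a very bright probe, had levels of 9.58 and 9.65 in the controls and 9.78 and 9.74 at day 7 (0.14 ± 0.20, adjusted p = 0.71). Of 14 smooth muscle markers 4 passed and none was called, and Acta2, Myh11 and Des did not pass. Their summed signal was 8.91 to 11.7 times the 75th percentile in the controls and 8.48 to 10.7 times at day 7. Without each array in turn, 2, 4, 2 and 6 of the actin list rose.

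Junction genes gave calls in single members. Of 28 tight junction genes 20 passed and 4 rose (median 0.32; 1, 1, 2 and 4 with 1 array left out), and of 29 genes of adherens junctions and desmosomes 20 passed, 2 rose and 1 fell (median 0.39; 1, 1, 1 and 2 higher with 1 array left out). The plakin Ppl, a component of desmosomes, had levels of -0.41 and -0.58 in the controls and 3.20 and 2.40 at day 7 and was 9.79-fold higher (3.29 ± 0.33, adjusted p = 0.0022). Pkp1, a desmosomal plakophilin, had levels of 2.98 and 2.55 in the controls and -1.91 and -0.97 at day 7 and was 18.4-fold lower (-4.20 ± 0.35, adjusted p = 0.0014). These genes moved in opposite directions without overlap. E-cadherin (Cdh1) had levels of 4.79 and 4.72 in the controls and 5.53 and 5.53 at day 7 and was not called (0.77 ± 0.20, adjusted p = 0.060). Over the serpin family 24 of 69 symbols passed, 2 rose and 8 fell (median -0.21), and 2, 5, 1 and 8 fell with 1 array left out. Against this direction, the intracellular serpins Serpinb6b and Serpinb9, which inhibit serine proteases, were 12-fold higher (3.59 ± 0.29, adjusted p = 0.0012) and 18.3-fold higher (4.19 ± 0.35, adjusted p = 0.0014). Plaur, the urokinase receptor, had levels of -1.49 and -0.20 in the controls and 3.76 and 2.39 at day 7 and was 15.1-fold higher (3.92 ± 0.60, adjusted p = 0.0097). Plaur was not called without day 7 replicate 1 and without the filter on dim signals (adjusted p = 0.051 to 0.060).

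Interferon-inducible GTPases of the IRG and GBP families, which attack the vacuoles of intracellular microbes, were strongly higher. The list also holds Ido1, a gene of neither family. Of 17 listed, 15 passed, 9 rose and none fell (median 2.40). Of the 15, 1 was not well above background on either control array, so it had to be higher. Igtp, also called Irgm3, had levels of 2.94 and 3.01 in the controls and 8.03 and 6.98 at day 7 and was 23-fold higher (4.52 ± 0.47, adjusted p = 0.0026). Irgm1 had levels of 1.49 and 1.18 in the controls and 5.44 and 4.20 at day 7 and was 11.2-fold higher (3.48 ± 0.49, adjusted p = 0.0075). Irgm2 had levels of 1.30 and 1.43 in the controls and 5.17 and 4.63 at day 7 and was 11.6-fold higher (3.54 ± 0.32, adjusted p = 0.0017). All 3 lay higher on day 7 array 1 than on array 2 and above the controls on both. Gbp7 was 34.7-fold higher (5.12 ± 0.42, adjusted p = 0.0014) and Tgtp2 24.7-fold higher (4.63 ± 0.59, adjusted p = 0.0053). These families hold close copies whose probes may cross-react. Without control replicate 1, control replicate 2, day 7 replicate 1 and day 7 replicate 2 in turn, 6, 7, 7 and 12 members rose.

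The promoter windows of genes on this list share a sequence. The interferon response element was searched as GAAA, any 2 bases and GAAA on both strands, and it was in 2.65% of all windows, 6.23% of those of genes called higher and 2.48% of those of genes called lower. Each of the 8 genes of the GTPase list with a window held it, in 8 of 9 windows. The list was compiled as interferon-inducible genes, so this share describes the list and not the array values. In the wider list of interferon-stimulated genes 10 of 37 windows did (27.0%). Windows of the 3 called GTPases with the smallest p are shown with the element in capitals, and they were added after the values were seen.
Gbp7 (chr3:142530086-142530335, plus strand): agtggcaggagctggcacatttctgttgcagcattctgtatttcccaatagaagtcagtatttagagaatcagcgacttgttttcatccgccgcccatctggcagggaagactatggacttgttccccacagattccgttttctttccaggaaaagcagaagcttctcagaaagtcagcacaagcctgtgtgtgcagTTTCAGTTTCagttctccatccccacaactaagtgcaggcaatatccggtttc
Irgm2 (chr11:58214727-58214976, plus strand): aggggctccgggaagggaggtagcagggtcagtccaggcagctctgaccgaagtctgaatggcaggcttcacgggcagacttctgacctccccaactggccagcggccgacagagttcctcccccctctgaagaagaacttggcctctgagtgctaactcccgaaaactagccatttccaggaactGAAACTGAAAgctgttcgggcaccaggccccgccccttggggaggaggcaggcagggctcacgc
Igtp (chr11:58199306-58199555, plus strand): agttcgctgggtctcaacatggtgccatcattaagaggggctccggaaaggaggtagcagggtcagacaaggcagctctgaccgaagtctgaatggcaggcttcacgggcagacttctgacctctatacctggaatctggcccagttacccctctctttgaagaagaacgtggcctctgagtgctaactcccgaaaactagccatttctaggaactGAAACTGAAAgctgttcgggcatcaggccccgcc
The element begins 53 bases before the start site of Gbp7, 64 before Irgm2 and 34 before Igtp. The Irgm2 and Igtp windows share long identical runs, so their matches are not independent.

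Some other interferon-stimulated genes rose as well. Of 40 listed 37 passed, 12 rose and none fell (median 0.96). Oas2, a sensor of double-stranded RNA, had levels of 1.02 and 0.74 in the controls and 2.42 and 2.43 at day 7 and was 2.92-fold higher (1.55 ± 0.22, adjusted p = 0.0079). Ifit2, which blocks translation of viral RNA, had levels of -4.02 and -3.17 in the controls and -0.05 and -1.13 at day 7 and was 8.04-fold higher (3.01 ± 0.44, adjusted p = 0.0086). Irf1, a transcription factor of the interferon response, was 3.29-fold higher (1.72 ± 0.26, adjusted p = 0.010). Of 33 antigen presentation genes 30 passed, 6 rose and none fell (median 0.61). The invariant chain Cd74 had levels of 2.81 and 3.55 in the controls and 7.10 and 5.24 at day 7 and was 7.93-fold higher (2.99 ± 0.70, adjusted p = 0.042), and the MHC class II gene H2-Eb1 had levels of 2.67 and 4.08 in the controls and 7.06 and 5.85 at day 7 and was 8.46-fold higher (3.08 ± 0.67, adjusted p = 0.033). Ciita, the class II transactivator, was not well above background on either control array and had levels of -2.37 and -2.69 at day 7 and was higher by at least 3.12-fold (adjusted p = 0.0075). The class I genes H2-K1 (0.18 ± 0.23, adjusted p = 0.68) and B2m (0.28 ± 0.20, adjusted p = 0.45) were not called. With each array left out in turn, 2, 6, 4 and 9 interferon-stimulated genes and 1, 5, 1 and 9 antigen presentation genes rose. Cd74 was not called without either control replicate or without day 7 replicate 1, without the filter on dim signals and with only the 2 groups compared (adjusted p = 0.062 to 0.17), Ciita under normexp correction (0.25) and H2-Eb1 without control replicate 1 or without day 7 replicate 1 and without the filter on dim signals (0.12 to 0.18). Irf1 was not called without control replicate 1 (adjusted p = 0.059).

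Markers of immune cells were present in all 4 samples. Of 25 T cell and intraepithelial lymphocyte markers 21 passed and only Gzmb rose (1.48 ± 0.25, adjusted p = 0.013), and their summed signal was 277 to 333 times the 75th percentile in the controls and 378 to 432 times at day 7. Macrophage and dendritic cell markers summed to 56.0 to 56.1 times in the controls and 66.4 to 76.3 times at day 7, with 1 of the 18 that passed higher (Mrc1, 2.20 ± 0.46, adjusted p = 0.030) and Adgre1, Fcgr1 and Ccr2 not passing. Of 16 B and plasma cell markers 5 passed and none was called, while Ms4a1 and Cd79a did not pass. The part of these cells in the interferon and class II values was not tested. Of 22 neutrophil, mast cell and eosinophil markers 11 passed, 5 rose and 1 fell (3, 4, 2 and 2 rose with 1 array left out), with a summed signal of 162 to 219 times in the controls and 159 to 253 times at day 7. Of the 11, 2 were not well above background on either control array, so they had to be higher. Another 1 was not well above background on either day 7 array, so it had to be lower. Mcpt4, a chymase, had levels of -1.03 and -0.14 in the controls and 2.05 and 2.33 at day 7 and was 6.85-fold higher (2.78 ± 0.36, adjusted p = 0.0054). Mcpt1 was 10.4-fold higher (3.38 ± 0.76, adjusted p = 0.038) with control arrays far apart, and Cma1, Ms4a2 and Prg2 did not pass. Gzmb was not called without control replicate 1 or without day 7 replicate 1 and without the filter on dim signals (adjusted p = 0.059 to 0.077), Mcpt1 without control replicate 1 or without either day 7 replicate, without the filter on dim signals and with only the 2 groups compared (0.057 to 0.15) and Mrc1 without control replicate 2 or without day 7 replicate 1, under normexp correction, without the filter on dim signals and with only the 2 groups compared (0.064 to 0.13).

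Cytokines and antimicrobial genes changed in both directions. Of 44 listed chemokines and cytokines 21 passed, 5 rose and 2 fell (median 0.08), and 3, 5, 2 and 6 rose with 1 array left out. Cxcl10, an interferon-induced chemokine, had levels of -0.87 and -0.29 in the controls and 2.44 and 2.17 at day 7 and was 7.39-fold higher (2.88 ± 0.32, adjusted p = 0.0033). Ccl6 and Ccl9, related chemokines, fell, Ccl6 being 5.4-fold lower (-2.43 ± 0.20, adjusted p = 0.0014) and Ccl9 11.7-fold lower (-3.54 ± 0.30, adjusted p = 0.0014). Among 25 antimicrobial and acute phase genes that passed, of 38 listed, 4 rose and 6 fell (median 0.06), and 3, 5, 3 and 7 fell with 1 array left out. Saa2, an acute phase apolipoprotein, was not well above background on either control array and had levels of -0.71 and 0.34 at day 7 and was higher by at least 21.4-fold (adjusted p = 0.00070). Nos2, the inducible nitric oxide synthase, had levels of -0.24 and -0.58 in the controls and 3.38 and 2.27 at day 7 and was 9.42-fold higher (3.24 ± 0.39, adjusted p = 0.0045). The Reg lectins split. Reg3a had levels of 5.30 and 5.33 in the controls and 2.91 and 3.33 at day 7 and was 4.57-fold lower (-2.19 ± 0.28, adjusted p = 0.0051), and Reg1 had levels of 10.23 and 9.34 in the controls and 6.65 and 7.74 at day 7 and was 6.04-fold lower (-2.60 ± 0.44, adjusted p = 0.014). Reg3b (0.68 ± 0.39, adjusted p = 0.34) and Reg3g (0.32 ± 0.34, adjusted p = 0.61) were not called. Reg1 was not called without control replicate 1 or without day 7 replicate 1 and without the filter on dim signals (adjusted p = 0.061 to 0.067).

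Gasdermins of the C group, members of the pore-forming gasdermin family, were higher. Gsdmc3 had levels of -1.39 and -0.35 in the controls and 5.14 and 6.31 at day 7 and was 96.5-fold higher (6.59 ± 0.55, adjusted p = 0.0014). Gsdmc was 29.7-fold higher (4.89 ± 0.52, adjusted p = 0.0028) and Gsdmc4 28.7-fold higher (4.84 ± 0.53, adjusted p = 0.0031). These genes are close copies, and all 3 were higher on day 7 array 2 than on array 1 and above both controls. Gsdma2 had levels of 0.20 and 0.36 in the controls and was not well above background on either day 7 array and was lower by at least 22.5-fold (adjusted p = 0.0012). Gsdmd, whose protein forms pores after caspase cleavage, differed by 0.55 ± 0.21 (adjusted p = 0.17). In the wider list of cell death genes 40 of 43 passed, 5 rose and 2 fell (median 0.29), and 4, 5, 3 and 7 rose and 1, 1, 1 and 3 fell with 1 array left out. Mcl1, which protects mitochondria, was not called (0.45 ± 0.26, adjusted p = 0.34). Of 31 genes of the p53 response that passed, 3 rose and 1 fell (0, 1, 1 and 2 rose with 1 array left out), and Cdkn1a (0.41 ± 0.21, adjusted p = 0.30) and Mdm2 (-0.08 ± 0.30, adjusted p = 0.89) were not called.

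Ligands and receptors of growth pathways changed singly. Nrg4, a neuregulin that binds ErbB4, had levels of 0.65 and 1.24 in the controls and -3.61 and -2.14 at day 7 and was 14.1-fold lower (-3.82 ± 0.52, adjusted p = 0.0067). Areg, amphiregulin, was 4.36-fold higher (2.12 ± 0.37, adjusted p = 0.015), and the receptor genes Egfr (0.69 ± 0.22, adjusted p = 0.10) and Erbb2 (0.63 ± 0.21, adjusted p = 0.11) were not called. Fgfr4, a receptor of fibroblast growth factors, had levels of -1.04 and 0.08 in the controls and 3.57 and 2.81 at day 7 and was 12.7-fold higher (3.67 ± 0.45, adjusted p = 0.0048). Pdgfc, a platelet-derived growth factor, was 3.63-fold higher (1.86 ± 0.22, adjusted p = 0.0039), and the receptor kinase Tyro3 was 3.74-fold lower (-1.90 ± 0.22, adjusted p = 0.0035). In the Notch pathway, which keeps progenitors from the secretory fate, 1 of the 18 genes that passed rose and 3 fell (1, 1, 2 and 2 fell with 1 array left out). Jag2, a ligand, had levels of -3.78 and -4.25 in the controls (1 of 2 arrays well above background) and 0.11 and -0.75 at day 7 and was 12.9-fold higher (3.69 ± 0.33, adjusted p = 0.0017), and Nrarp, a target and feedback inhibitor, had levels of -1.43 and -0.99 in the controls and was not well above background on either day 7 array and was lower by at least 4.83-fold (adjusted p = 0.0034). Bmp8b, Bmp2 and Tgfbr2 of the BMP and TGF-beta pathway were 6.71-fold, 5.11-fold and 4.24-fold higher, in a list with 5 of 26 higher and 1 lower (3, 3, 3 and 3 higher with 1 array left out). Of 15 Wnt target genes that passed 5 fell (1, 2, 1 and 4 with 1 array left out), and Ascl2, the stem cell factor among them, was 6.59-fold lower (-2.72 ± 0.27, adjusted p = 0.0024). Areg was not called without control replicate 1 or without day 7 replicate 1 and without the filter on dim signals (adjusted p = 0.068 to 0.076).

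Genes of proliferation and of the basic machinery of the cell were called, in either direction together, at shares below the 10.2% over all features. Calls leave out small shifts, since the smallest called difference was 0.83. Differences were above 0 for 34 of 39 cell cycle, 26 of 42 DNA replication and 19 of 34 ER stress genes. They were below 0 for 45 of 49 ribosomal protein, 61 of 77 mitochondrial ribosomal protein and 40 of 45 respiratory chain genes. These signs were not tested. For higher calls alone, the cell cycle list had 5.13%, near the 5.01% over all genes with a symbol. Of 39 cell cycle genes that passed 2 rose, Kif23 and Ect2 (median 0.49; 0, 2, 0 and 1 with 1 array left out), and the median was 0.79 on day 7 array 1 and 0.11 on array 2. Mki67 had levels of 4.33 and 4.23 in the controls and 5.10 and 4.49 at day 7 (0.51 ± 0.34, adjusted p = 0.40). Ect2, an exchange factor that drives cytokinesis, had levels of 0.60 and 0.67 in the controls and 3.11 and 2.42 at day 7 and was 4.38-fold higher (2.13 ± 0.37, adjusted p = 0.016). None of 42 DNA replication genes (median 0.14), 49 ribosomal protein genes (median -0.25) or 77 mitochondrial ribosomal protein genes (median -0.20) was called. Of 45 respiratory chain genes 2 fell (median -0.40), and 0, 0, 1 and 4 fell with 1 array left out. Of 34 genes of ER stress and protein folding 2 fell (1, 2, 1 and 2 with 1 array left out) and 1 rose, with the chaperone Hspa5 at 0.08 ± 0.22 (adjusted p = 0.85). Ect2 was not called without control replicate 1 or without day 7 replicate 1 and without the filter on dim signals (adjusted p = 0.068 to 0.091) and Kif23 without control replicate 1 or without either day 7 replicate, without the filter on dim signals and with only the 2 groups compared (0.073 to 0.21).

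Some of the highest genes were not well above background in the controls. Among the 13083 features with a symbol, 124 were well above background on both day 7 arrays and no control array, and 340 on both control arrays and no day 7 array. The lowest signal well above background was -3.90 on day 7 array 1 and -4.67 to -4.52 on the other arrays compared. Dim probes could thus drop out more easily on day 7 array 1, and the part of this in the counts was not tested. Tm4sf1, a tetraspanin-like surface protein, was not well above background on either control array and had levels of 1.97 and 2.16 at day 7 and was higher by at least 70.4-fold (adjusted p = 0.00024). Rbpms, an RNA-binding protein, was not well above background on either control array and had levels of 0.95 and 0.68 at day 7 and was higher by at least 42.8-fold (adjusted p = 0.00073), and its other probes differed by 4.37 and 3.92. Zfp185, a LIM-domain protein, was higher by at least 49.9-fold (adjusted p = 0.0021). Gcnt1, a glycosyltransferase that branches O-glycans, rose. It had levels of -1.24 and -1.74 in the controls and 5.18 and 5.05 at day 7 and was 97.6-fold higher (6.61 ± 0.41, adjusted p = 0.00055). On the other side, Hpd, an enzyme of tyrosine breakdown, had levels of 0.03 and -0.19 in the controls and was not well above background on either day 7 array and was lower by at least 12.5-fold (adjusted p = 0.0024). Klk1, a tissue kallikrein of goblet cells, had levels of 4.39 and 4.39 in the controls and -1.19 and -0.73 at day 7 and was 40.6-fold lower (-5.34 ± 0.27, adjusted p = 0.00033). Of the 13 kallikreins that passed, 9 fell (median -5.02), and 9 fell also without each of the 4 arrays in turn, but the Klk1b genes are near-identical to Klk1 and their probes are not independent measurements.

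The 2 day 7 mice differed in the size of many changes. Among all features the median absolute difference between the day 7 arrays was 0.33, against 0.21 between the controls, and 1696 features lay more than 1 log2 unit apart against 1318. Of the 2290 calls, 1567 had the larger difference on array 1. The genes furthest apart between the mice were lower on array 1 and were not called. Cmya5 had levels of 0.05 and 2.62 in the controls and -3.02 and 3.83 at day 7. Mbl2, a mannose-binding lectin, had levels of 2.33 and 1.75 in the controls and -2.49 and 2.97 at day 7. Haemoglobin genes were also lower on array 1, and Hba-a1 had levels of 4.45 and 3.90 in the controls and -2.15 and 2.48 at day 7. Over the 7 erythroid markers that passed, of 11 listed, the summed signal was 72.8 to 83.0 times the 75th percentile in the controls and 2.18 and 31.0 times on the day 7 arrays. Without day 7 replicate 2, 6 of these markers were called lower, against none with all arrays. The part of blood cells in other values was not tested.

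**Figure D5:**
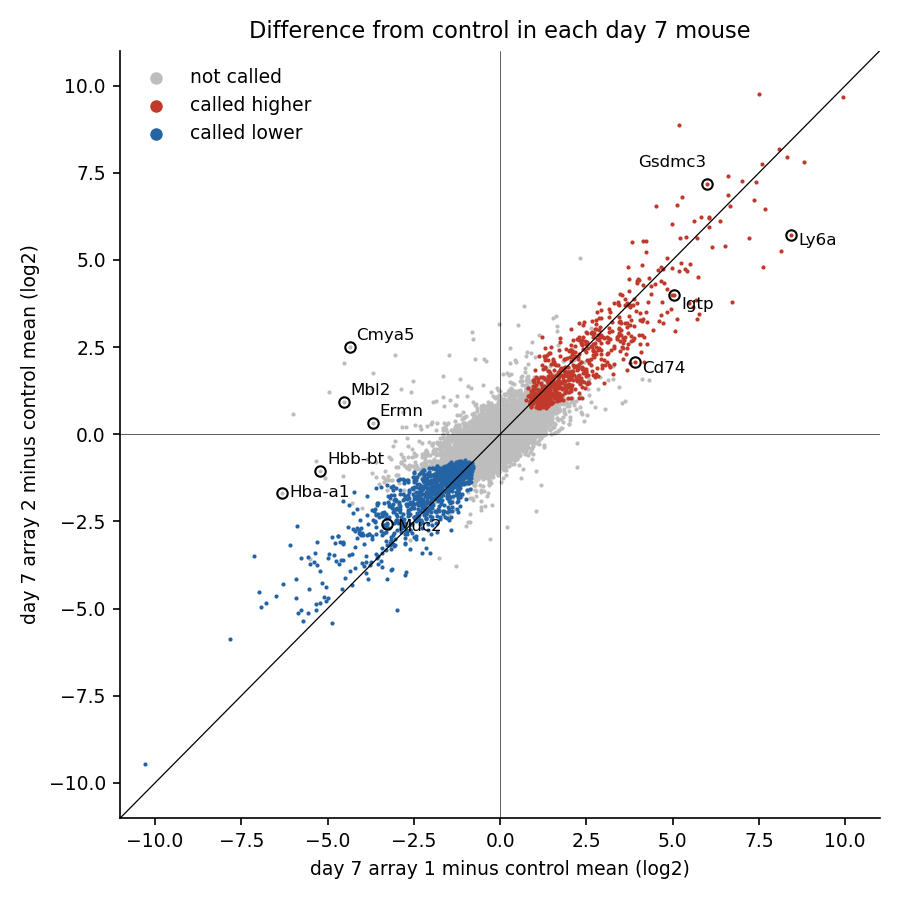
Each point is a gene with a symbol. The x axis is day 7 array 1 minus the control mean and the y axis day 7 array 2 minus the control mean (log2), with the diagonal marking equal change and colour marking genes called higher, called lower and not called. Cmya5, Mbl2, Ermn and the haemoglobin genes lie above the diagonal on the left, since they were lower on array 1 than on array 2.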

How the data were processed

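Epithelium from 4 male mice was measured on 1-colour Agilent arrays. Per the file headers, intensity values are the scanner's processed signals from Feature Extraction, background-subtracted and deposited without normalization between arrays. The deposited value table holds the same processed intensity on a linear scale and was used only as an alternative. Control spots and outlier spots were left out, spots of a probe were averaged, and log2 signal minus the 75th percentile of each array was taken. Of 55681 probes 27509 carry a symbol, for 20887 genes. Of several probes to a gene that passed, the brightest was used, and a probe without a symbol was kept as its own feature.

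Features well above background on both arrays of at least 1 group were tested with limma 3.58.1 (lmFit and eBayes, R 4.3.3) over all 7 arrays, which share 1 estimate of the spread, for day 7 minus control, with Benjamini-Hochberg adjustment over 22543 features and a threshold of 0.05. The fit was also run on simulated data with independent noise on each array. That simulation held no slide or mouse effect, so it does not show how reliable the calls in these mice are. Tables and figures were made with pandas 2.3.3, numpy 2.4.6 and matplotlib 3.10.9. Where no array of a group was well above background, the fold is a lower bound ("at least"), from the mean of the bright group and, per array of the dim group, the higher of its lowest signal well above background and the probe's own. With 2 arrays a group, their number limits the precision. Summed signals add the linear signal of the members that passed, in multiples of the 75th percentile.

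The members, lists and tests were chosen with earlier results of these data known. Named genes were Mob1a, Mob1b and Esr1, the 25 highest and lowest called genes whose groups did not overlap, up to 10 called members per list and direction and the 5 brightest not called, the 15 brightest seen in 1 group only, and the 10 that differed most between the day 7 arrays. Other names, and the interferon promoter windows, were chosen after values were seen. Alternatives were median scaling, quantile normalization, the percentile over probes seen on all arrays, normexp (planned on the mean signal and run instead on the median signal, the mean signal not being used here), other filters, mean probes, the value table, only the 2 groups compared, a replicate block and leaving out each array. Deviations of control and day 7 arrays with the same number correlated at 0.094, those of control and day 4 at 0.003, and those of day 4 and day 7 at 0.317. The numbers were not taken to pair the mice in the main fit, and the replicate block was the alternative that used them.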

Additional observations from a re-analysis of the deposited data

How the results depend on the processing

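Of the 2290 calls, 756 held without each of the 4 arrays in turn and 536 under every one of the 14 alternatives that gave a value for the feature, since the filter on all 4 arrays left some out. Leaving out 1 array gave 454 to 882 features higher and 515 to 1628 lower. Normexp background correction gave 519 higher and 823 lower, no filter on dim probes gave 457 and 510 among 48984 features, and a fit of only the 2 groups compared gave 890 lower, with fewer arrays behind the spread. For the other changes the cause was not tested. With the replicate block 999 features were higher and 1521 lower, and 2195 of the 2290 calls were kept. The other alternatives stayed within 1.5 times of both counts. The share of lower calls ran from 49.0% to 65.1%. Signal near background limits dim genes, for which only bounds are given, and 2 arrays a group limit the precision of each value.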
